A study of Mus musculus with 7 samples.

Results

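The enzymes of beta-oxidation, the chain of reactions that shortens fatty acids by repeated removal of acetyl-CoA, were followed in mouse liver over 24 h through their mRNAs. The members were 9 genes chosen by name, namely Cpt2, Acadm, Acadl, Acadvl, Hadha, Hadhb, Ehhadh, Acaa1b and Acaa2, out of 19938 genes that have a probe set with a single gene symbol on the array. All 9 were found. Hadhb has 2 probe sets and the other members 1 each, and the probe set with the highest mean over the arrays was taken for each gene. Male C57/BL6 mice, with no further genetic change or drug named in the labels and 9 to 11 weeks old at the start of 3 weeks of housing, were kept under light from ZT0 to ZT12 and dark from ZT12 to ZT24 (ZT, the hours since lights on), and for the last 7 days had food in the dark phase only. The 7 groups are sampling times spaced by 4 h from ZT02 to ZT26, and ZT26 is the clock hour of ZT02 on the following day. Each group is 1 Affymetrix Mouse Gene 1.0 ST array, hybridised with 1 pool to which 5 perfused livers gave equal amounts of RNA. The pools average over animals, no time point has a second array, and the small number of arrays limits the precision of every value below. Values are log2 signals as deposited, so a difference of 1 is a 2-fold change, and signals of different probe sets were not compared in level.

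A fatty acid is activated to an acyl-CoA, passed into the mitochondrion by the carnitine shuttle, and then shortened by repeated turns of dehydrogenation, hydration, a further dehydrogenation and cleavage by a thiolase. Very long and branched chains are handled in peroxisomes by a separate set of enzymes. In liver the pathway supplies energy and ketone bodies during fasting, and many of its genes are targets of the nuclear receptor PPAR-alpha, which binds DNA together with RXR. Hepatocytes carry most of these enzymes, but the RNA came from whole liver, in which fewer cells of a type and less RNA per cell cannot be told apart.

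Promoter windows, from 250 bases before the annotated start to 50 bases after it, were held by the RefSeq table of build GRCm38.p6 for 8 of the 9 members and not for Acaa2. Hadha and Hadhb, which encode the 2 subunits of a single enzyme complex, lie head to head, with 272 bases between their start sites. Their windows share 228 bases, printed in capitals in the window of Hadhb (chr5:30155003-30155302, plus strand), because their mRNAs are set side by side below:
Hadhb: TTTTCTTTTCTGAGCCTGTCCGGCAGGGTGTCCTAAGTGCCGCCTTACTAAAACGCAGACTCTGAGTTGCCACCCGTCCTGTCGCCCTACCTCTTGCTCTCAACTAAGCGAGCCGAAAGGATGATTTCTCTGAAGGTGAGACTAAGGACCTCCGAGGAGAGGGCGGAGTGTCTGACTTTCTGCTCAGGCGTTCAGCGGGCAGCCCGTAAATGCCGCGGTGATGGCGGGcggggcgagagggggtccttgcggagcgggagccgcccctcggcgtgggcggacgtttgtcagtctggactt
The hexamer AGGTCA, the core that PPAR-alpha and other nuclear receptors recognise, was searched on both strands. It was found in the windows of Acadm (chr3:153944594-153944893, minus strand) and Acadvl (chr11:70015379-70015678, minus strand), 1 match each, in capitals here:
Acadm: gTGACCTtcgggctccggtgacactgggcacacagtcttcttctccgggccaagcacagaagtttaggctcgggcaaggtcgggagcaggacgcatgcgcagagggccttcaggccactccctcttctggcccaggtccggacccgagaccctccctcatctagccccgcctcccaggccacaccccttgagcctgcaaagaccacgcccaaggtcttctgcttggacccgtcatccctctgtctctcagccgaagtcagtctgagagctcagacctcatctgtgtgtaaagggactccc
Acadvl: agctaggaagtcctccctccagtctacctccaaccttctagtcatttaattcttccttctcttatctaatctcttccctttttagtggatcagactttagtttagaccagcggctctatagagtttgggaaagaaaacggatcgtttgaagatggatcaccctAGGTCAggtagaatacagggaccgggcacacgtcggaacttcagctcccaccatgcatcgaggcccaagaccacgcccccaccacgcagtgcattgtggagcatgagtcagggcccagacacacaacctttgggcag
Of all 32851 windows of this length, 16.3% hold the hexamer, against 2 of the 8 members. The tandem form that PPAR-alpha and RXR bind as a pair, 2 such hexamers in the same direction with 1 base between them, was in 0 of the 8 windows and in 0.0396% of all. The E-box CACGTG, the motif of the clock factors CLOCK and BMAL1, was likewise in 0 of 8 and in 7.15% of all. Any overlap between the hexamer and its tandem form counts for both.

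Over the 24 h the mRNAs of the 9 members changed little. The highest array exceeded the lowest by 1.07-fold in Ehhadh, which was the smallest range, and by 1.32-fold in Acaa1b, which was the largest. The median over the members was 1.16-fold, beside 1.24-fold over all 12076 tested probe sets, namely those annotated with 1 gene whose signal averaged over 85 units before the log. None of the 9 exceeded 1.5-fold, as 16.3% of the tested probe sets did. For scale, Dbp, an output gene of the clock, ranged 19.4-fold on the same arrays, and Alb, the albumin gene, 1.07-fold.

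Each probe set was given a 24 h cosine in limma, and its cosine and sine terms were tested together. At an adjusted p under 0.05, 0 of the 9 members were rhythmic, where 4.47% of all tested probe sets (540) were. The lowest adjusted p was that of Hadhb (limma, adjusted p = 0.172), and Hadhb was also the 1 member with an unadjusted p under 0.05, as 25.7% of the tested probe sets had. The study's methods ask of mRNA a Fisher one-period p below 0.25 and a change above 1.5-fold. By both thresholds the count was 0 of 9, beside 13.6% of the tested probe sets. The fold threshold alone fixed this 0, as no member changed more than 1.5-fold. In every member but Cpt2 (0.362) and Ehhadh (0.374), the Fisher one-period p itself lay below 0.25. The share of all tested probe sets with such a p was not worked out, so these p-values do not set the members apart from other genes. Fitted amplitudes, the distance in log2 from mean to peak, lay between 0.04 in Ehhadh and 0.14 in Acaa1b, with a median of 0.08 beside 0.09 over all tested probe sets.

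A missed threshold does not show that a profile is flat, so the joint 95% region of the cosine and sine terms was used to bound each amplitude. The bound was tightest for Acaa2, where a fitted peak over trough of at most 1.18-fold lies inside the region. It was 1.21-fold for Hadha and Ehhadh, 1.27-fold for Acadvl, 1.31-fold for Acadm and Hadhb, 1.37-fold for Acadl, 1.40-fold for Cpt2 and 1.51-fold for Acaa1b. Cosine changes larger than these were therefore outside the 95% region of each fit, whereas for the members other than Hadhb the region also held an amplitude of 0. For Hadhb it began at 0.01, before any adjustment for the number of probe sets tested.

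**Figure D1:**
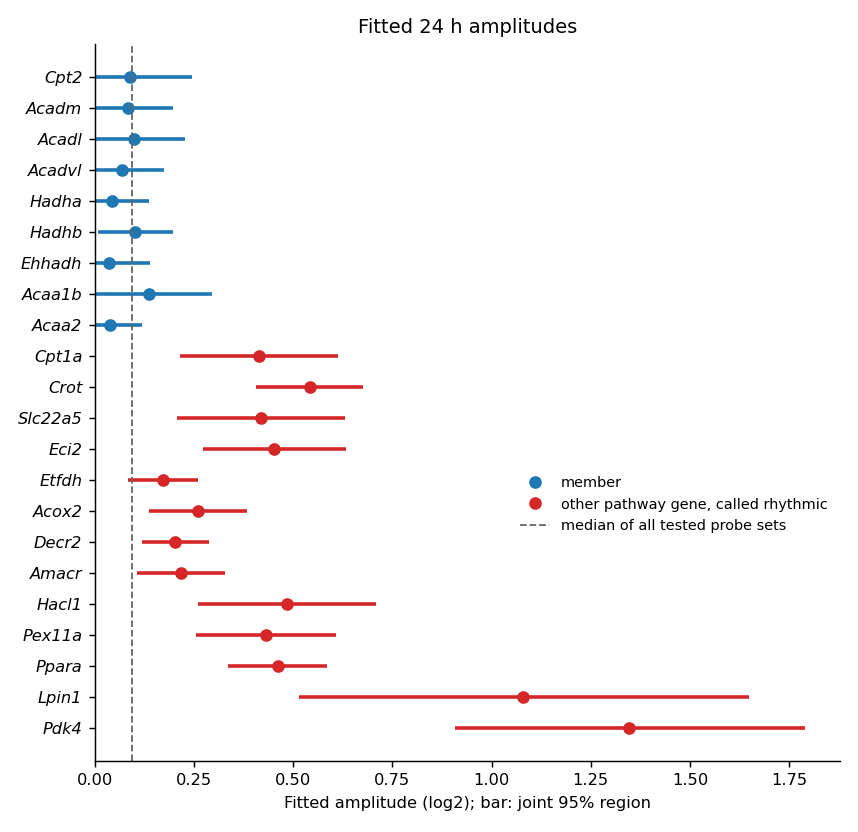
Fitted 24 h amplitude in log2 (points) with the range of amplitudes inside the joint 95% region (bars), for the 9 members in blue and for the 13 other genes of fatty acid oxidation that were called rhythmic in red. The members lie between 0.04 and 0.14, about the median of all tested probe sets (dashed line, 0.09), and the red genes reach from 0.17 in Etfdh to 1.35 in Pdk4.

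Cpt2 encodes the carnitine palmitoyltransferase of the inner mitochondrial membrane, which turns acylcarnitines back into acyl-CoAs. Its log2 signal was 11.42 at ZT02, 11.46 at ZT06, 11.34 at ZT10, 11.48 at ZT14, 11.66 at ZT18, 11.43 at ZT22 and 11.49 at ZT26. The ZT18 array was the high one and ZT10 the low one, and the other 5 arrays lay between 11.42 and 11.49. The amplitude was 0.09 (standard error 0.05) with a fitted peak at ZT18.9 (limma, adjusted p = 0.492). The range of 0.32 in log2 rested largely on ZT18, since it was 0.15 without that array.

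The other genes of the carnitine shuttle had wider ranges than Cpt2. Of the 5 tested, 3 were rhythmic (limma, adjusted p under 0.05), beside 4.47% of all tested probe sets. The ranges of highest over lowest array in the 5 were 1.56- to 2.23-fold, against 1.25-fold for Cpt2. Cpt1a, which makes acylcarnitines at the outer membrane and is the controlled step of entry, changed 1.75-fold between ZT22 and ZT10 (amplitude 0.41, standard error 0.06, adjusted p = 0.0407). Crot, the peroxisomal carnitine octanoyltransferase, changed 2.23-fold between ZT14 and ZT26 (amplitude 0.54, standard error 0.04, adjusted p = 0.0110). Slc22a5, the carnitine importer of the plasma membrane, changed 1.99-fold (amplitude 0.42, standard error 0.07, adjusted p = 0.0455). The ratio of each shuttle gene to Cpt2 within an array was then tested for a 24 h cosine by an exact permutation of the arrays over the times (5040 orders), with p-values adjusted over the 22 ratios of this kind computed in all. Only Crot to Cpt2 passed (ratio amplitude 0.59 in log2, exact permutation test, adjusted p = 0.00873), while Cpt1a to Cpt2 had a ratio amplitude of 0.48 and an adjusted p of 0.0952 by the same exact test. Crot was already called on the same arrays with an amplitude of 0.54, so its ratio is no separate evidence. The share of all tested probe sets whose ratio to Cpt2 would pass was not worked out. With 1 array left out, Crot was lost as rhythmic without ZT02 (adjusted p = 0.0633), Slc22a5 was called without ZT26 only (highest adjusted p 0.182), and Cpt1a was lost whichever of the 7 was left out (highest 0.144, limma), while the amplitudes stayed at 0.47 to 0.58 in Crot, 0.38 to 0.50 in Slc22a5 and 0.38 to 0.46 in Cpt1a.

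**Figure D2:**
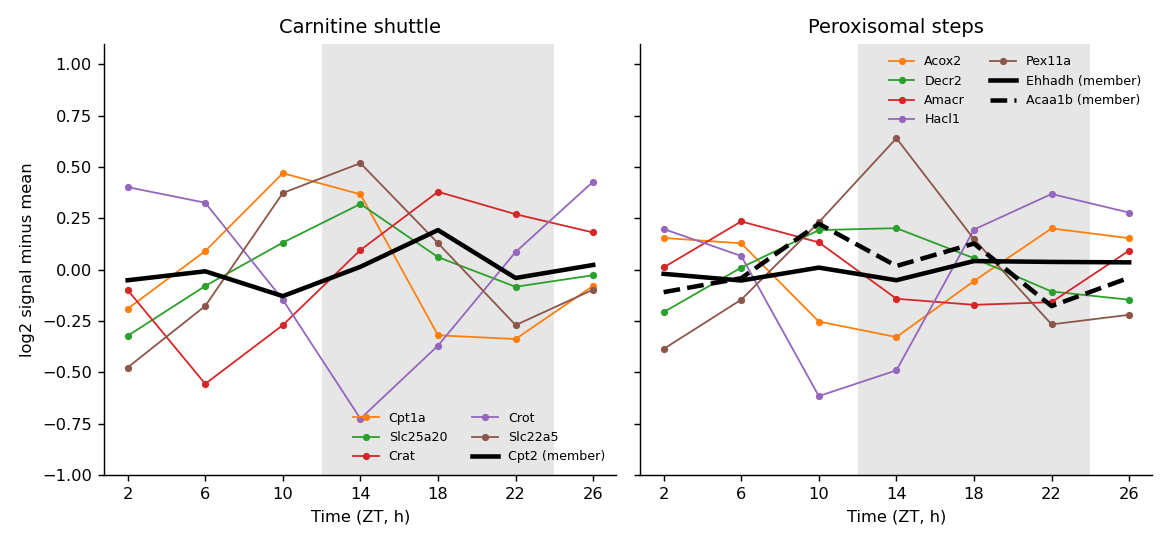
Log2 signal minus the mean of the 7 arrays against time, with the dark phase shaded, for the carnitine shuttle (left, Cpt2 in black and the 5 other tested genes) and for the peroxisome (right, Ehhadh and Acaa1b in black and the 5 other genes called rhythmic). The black lines stay near 0, with Acaa1b at ZT10 furthest above it, and Crot falls to its lowest at ZT14.

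The acyl-CoA dehydrogenases carry out the opening step of each turn and differ in the chain length they prefer. Acadm, the medium-chain enzyme, had 12.10 at ZT02, 12.21 at ZT06, 12.34 at ZT10, 12.27 at ZT14, 12.19 at ZT18, 12.16 at ZT22 and 12.24 at ZT26. It was highest at ZT10 and lowest at ZT02, and the fit gave an amplitude of 0.08 (standard error 0.04) with a peak at ZT11.1 (limma, adjusted p = 0.328). The range fell from 0.25 to 0.17 in log2 without the ZT10 array. Acadl, the long-chain enzyme, had 10.40, 10.33, 10.54, 10.49, 10.46, 10.25 and 10.39 on the arrays from ZT02 to ZT26 in order. Its highest array was also ZT10, its lowest ZT22, and the amplitude 0.10 (standard error 0.04, peak at ZT12.0, limma, adjusted p = 0.315). The range fell from 0.29 to 0.21 without ZT22.

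Acadvl, the very-long-chain enzyme of the inner membrane, had 10.43 at ZT02, ZT14 and ZT22, 10.50 at ZT06, 10.49 at ZT10, 10.33 at ZT18 and 10.37 at ZT26. Its daytime arrays ZT06 and ZT10 were the highest and ZT18 the lowest, with an amplitude of 0.07 (standard error 0.03, peak at ZT8.08, limma, adjusted p = 0.425). The value at ZT02, ZT14 and ZT22 was the same to the last deposited digit. Such ties are frequent in the deposited table, with 47.8% of the tested probe sets holding 1 value on at least 2 arrays and 23.5% on at least 3, and among the members Acadvl and Acaa2 (ZT18 and ZT22) had them. What the ties do to the spread that the test uses was not tested.

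Hadha and Hadhb encode the alpha and beta subunits of the mitochondrial trifunctional protein, which carries out the last 3 steps of each turn on long chains. Hadha had 11.76 at ZT02, 11.81 at ZT06, 11.86 at ZT10, 11.84 at ZT14, 11.83 at ZT18, 11.74 at ZT22 and 11.83 at ZT26. Hadhb had 10.76 at ZT02, 10.88 at ZT06, 10.92 at ZT10, 10.94 at ZT14, 10.79 at ZT18, 10.73 at ZT22 and 10.83 at ZT26. Both were lowest at ZT22 and next lowest at ZT02, and the highest arrays were ZT10 for Hadha and ZT14 for Hadhb. The amplitude of Hadha was 0.04 (standard error 0.03, peak at ZT11.1, adjusted p = 0.581) and that of Hadhb 0.10 (standard error 0.03, peak at ZT10.4, adjusted p = 0.172), both by limma. The difference Hadha minus Hadhb on 1 array varied by 0.13 in log2, between ZT14 and ZT18. The windows of these neighbouring genes share the bases printed in capitals above. Whether these bases bear on the profiles was not tested. The probe set used for Hadhb has a number that falls beside a pseudogene of Hadhb, as described next.

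The other probe set of Hadhb gave a profile of the same shape. It had 10.51, 10.63, 10.66, 10.67, 10.49, 10.45 and 10.58 from ZT02 to ZT26 in order, and was again highest at ZT14 and lowest at ZT22. Its amplitude was 0.11 (standard error 0.03, limma, adjusted p = 0.159). Probe set numbers on this array are only a partial guide to place. Hadha, which lies beside Hadhb on the other strand, has a number away from both probe sets of Hadhb. The number of the probe set used here falls between those of Kcna4 and Kif18a, and RefSeq places Hadhb-ps, a pseudogene of Hadhb, between these genes. That of the other falls between those of Garem2 and Selenoi, and RefSeq places Hadhb itself between them. Which of the copies each probe set reads was not tested. All values of Hadhb other than those in this paragraph come from the probe set used here. Hadha minus the other probe set varied by 0.16 in log2, so the difference between the subunits' profiles was of like size with either.

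Acaa2, the mitochondrial thiolase that releases acetyl-CoA, had the tightest profile in terms of its fit. It had 13.31 at ZT02, 13.37 at ZT06, 13.40 at ZT10, 13.40 at ZT14, 13.37 at ZT18, 13.37 at ZT22 and 13.33 at ZT26. The lowest arrays were those of the morning, ZT02 and ZT26, and the amplitude was 0.04 (standard error 0.03, peak at ZT13.1, limma, adjusted p = 0.599). Its mean of 13.4 is not far below the brightest signal of each array (14.40 to 14.48), and whether probes so bright still respond in proportion was not tested.

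**Figure D3:**
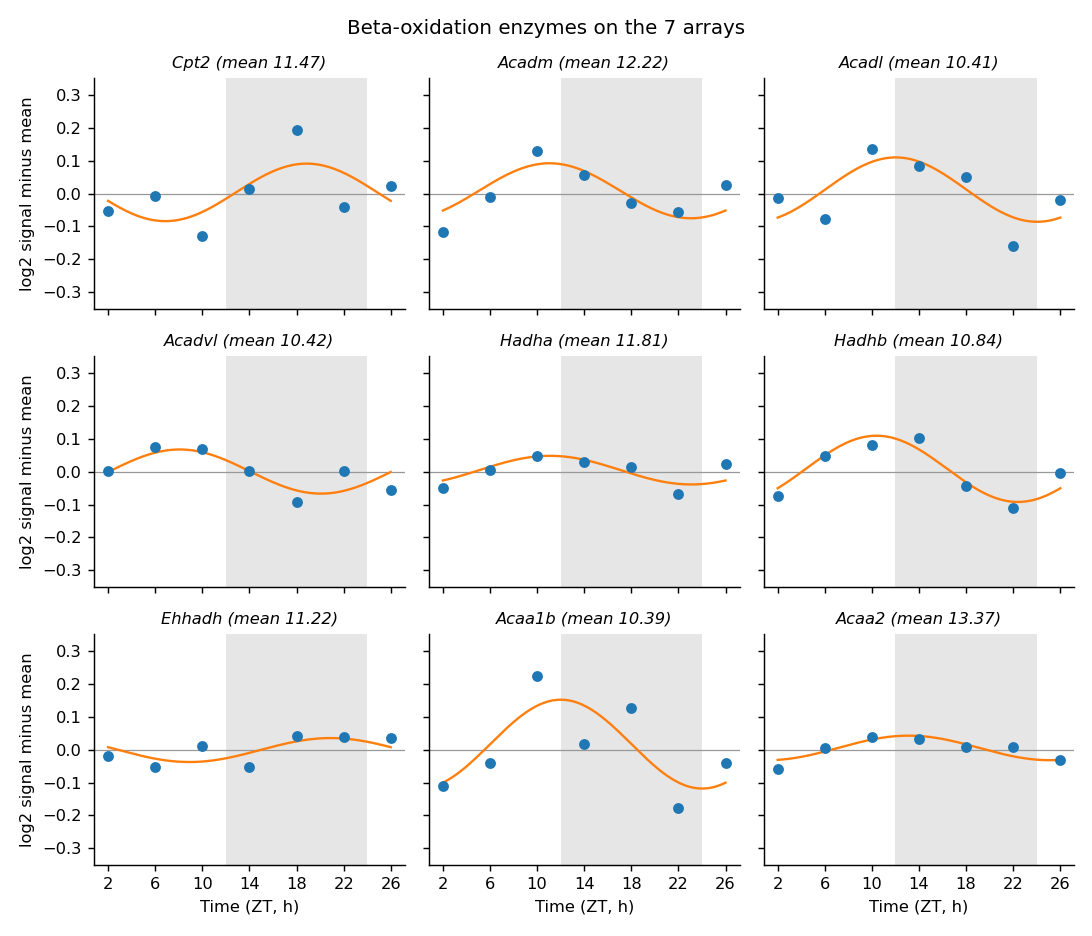
Log2 signal of each member minus its mean over the 7 arrays (points) against time, with the fitted 24 h cosine (line) and the dark phase shaded, on 1 common axis. Each point is 1 pool of 5 livers. Acaa1b and Cpt2 depart furthest from their means, and the points of Hadha, Ehhadh and Acaa2 stay closest to theirs.

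In the peroxisome, Ehhadh encodes the bifunctional enzyme that hydrates and dehydrogenates straight chains. It had 11.20 at ZT02, 11.17 at ZT06, 11.23 at ZT10, 11.17 at ZT14, 11.26 at ZT18, 11.26 at ZT22 and 11.26 at ZT26. The last 3 arrays lay within 0.01 of each other and above the rest, and the amplitude was 0.04 (standard error 0.03, peak at ZT20.9, limma, adjusted p = 0.722), or 0.07 without ZT10. Acaa1b, a peroxisomal thiolase, had 10.28 at ZT02, 10.35 at ZT06, 10.61 at ZT10, 10.41 at ZT14, 10.52 at ZT18, 10.21 at ZT22 and 10.35 at ZT26. It was highest at ZT10, with ZT18 next, and lowest at ZT22. Its amplitude was 0.14 (standard error 0.05, peak at ZT12.0, limma, adjusted p = 0.264). Acaa1a, its close paralog, was also highest at ZT10 and lowest at ZT22 (amplitude 0.17, standard error 0.05, limma, adjusted p = 0.146), and probes for either gene may read both.

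Among the 17 other peroxisomal genes tested, 5 were rhythmic, beside 4.47% of all tested probe sets. Hacl1, a lyase of branched-chain alpha-oxidation, changed 1.98-fold (limma, adjusted p = 0.0381, peak at ZT23.2), and Pex11a, which drives peroxisome division, 2.04-fold (adjusted p = 0.0308, peak at ZT13.5). Acox2, an oxidase of branched chains and bile acid precursors, changed 1.44-fold (adjusted p = 0.0401, peak at ZT0.836). Amacr, a racemase of branched chains, and Decr2, a reductase of unsaturated chains, both changed 1.33-fold (adjusted p = 0.0455 and 0.0310, limma). The ratio to Ehhadh within an array passed the exact permutation test for a 24 h cosine in 6 of the 17. These were Hacl1, Amacr, Acaa1a, Pex11a, Decr2 and Abcd3 (adjusted p from 0.00873 to 0.0274). That of Hsd17b4, which carries out the same steps as Ehhadh on branched chains, did not (ratio amplitude 0.05, exact test, adjusted p = 0.431). Ehhadh itself varied little (amplitude 0.04), so a ratio to it largely repeats a wide profile of the other gene. In Hacl1 the ratio amplitude was 0.45, beside 0.48 for the gene. Hacl1, Amacr, Pex11a and Decr2 were already called rhythmic on the same arrays. The share of all tested probe sets whose ratio to Ehhadh would pass was not worked out. Of all 22 ratios to Cpt2 or Ehhadh, 7 passed with 7 arrays, while 0 passed without ZT14 or ZT22, 3 without ZT10, 5 without ZT18 and 6 without ZT06. Without ZT02 or ZT26 the exact test cannot go below p = 0.0167, which 8 ratios would have to reach for any to pass, so the counts of 0 there say nothing about stability. Hacl1 was called without ZT06 only, Acox2 likewise, and Amacr, Decr2 and Pex11a were lost whichever array was left out (highest adjusted p 0.146, in Amacr, limma), with amplitudes that stayed at 0.20 to 0.25, 0.19 to 0.21 and 0.34 to 0.48.

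The fitted peak lay between ZT8 and ZT14 for 7 of the 9 members, with Cpt2 at ZT18.9 and Ehhadh at ZT20.9, beside 25.4% of all tested probe sets. The ZT10 array was the highest for 5 members (Acadm, Acadl, Hadha, Acaa1b and Acaa2), beside 17.9% of tested probe sets, and the ZT22 array the lowest for 4 (Acadl, Hadha, Hadhb and Acaa1b), beside 7.11%. At ZT10 and at ZT14, 8 of the 9 lay above their own means, and at ZT02 only Acadvl did. The window from ZT8 to ZT14 and the arrays counted were not set in advance, so the shares of all probe sets beside them are no test. Standard errors of the fitted peaks ran from 1.11 h in Hadhb to 3.04 h in Ehhadh. These counts describe genes that share the same 7 pools, and no single member's profile passed the test. Ppara, the gene of the nuclear receptor named above, was rhythmic with its highest array at ZT10 (1.91-fold, limma, adjusted p = 0.0134, peak at ZT10.5), and was lost without ZT02 (adjusted p = 0.0633).

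The sum of marker signals was lowest in the ZT10 pool for hepatocytes and for every other list of liver cells but that of red cells. Of the 9 Kupffer cell markers 8 lay above 85 units, and 5 of these were rhythmic, beside 4.47% of all tested probe sets. Summed over the 9, the signal was 4573 units at ZT10, and up to 7444 units on another light array and 5045 to 7316 units on the dark arrays. The 5 endothelial markers summed to 4300 units at ZT10 against up to 5549, the 5 stellate cell markers to 2251 against up to 2540, the 4 cholangiocyte markers (1 above 85 units) to 389 against up to 661, and the 4 lymphocyte markers with a probe set to 778 against up to 1475. The 6 hepatocyte markers, with 0 rhythmic, summed to 74360 units at ZT10 and up to 77577 at ZT14, and all 6 lay above 85 units. A sum leans on its brightest markers, and single markers differed. Of the endothelial markers only Clec4g was lowest at ZT10, and of the stellate cell markers only Lrat. Among hepatocyte markers, Hnf4a and Cps1 were lowest at ZT26 and Apoa1 at ZT18. The tested Kupffer cell markers were lowest at ZT10 except Adgre1 and Lyz2, which were lowest at ZT14. Whether these sums bear on the members' values at ZT10 was not tested.

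ZT02 and ZT26, the same clock hour on consecutive days, are the only repeat in the design. The difference ZT26 minus ZT02 in log2 was 0.07 in Cpt2, 0.14 in Acadm, -0.01 in Acadl, -0.06 in Acadvl, 0.07 in Hadha, 0.07 in Hadhb, 0.06 in Ehhadh, 0.07 in Acaa1b and 0.03 in Acaa2. Its size had a median of 0.07 over the members, beside 0.09 over all tested probe sets. Set against the full range over 24 h, it was 0.07 of 0.11 in Hadha, 0.06 of 0.09 in Ehhadh and 0.14 of 0.25 in Acadm. In Acaa1b it was 0.07 of 0.40, and in Acadl, where ZT26 was the lower by 0.01, the range was 0.29. ZT26 was the higher in 7 of 9 members and in 63.2% of tested probe sets.

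**Figure D4:**
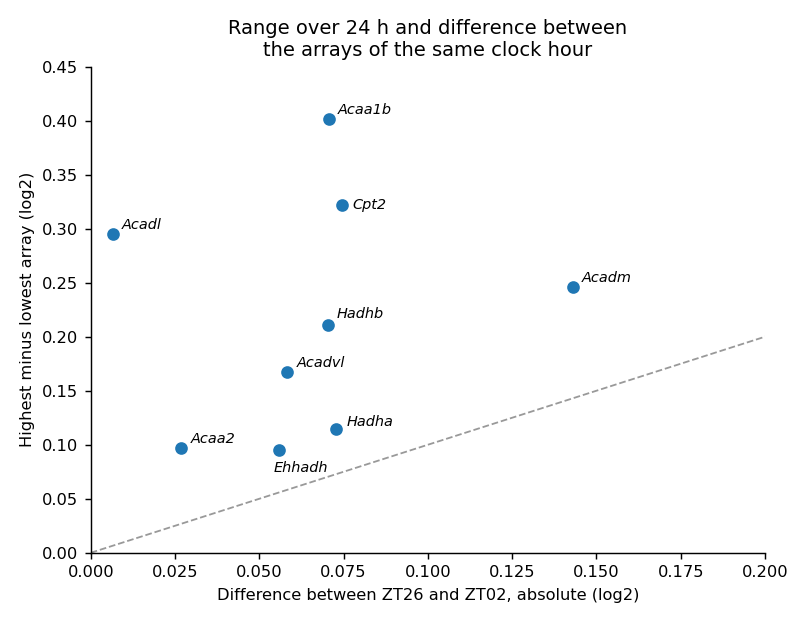
Highest minus lowest of the 7 arrays in log2 (vertical axis) against the absolute difference between ZT26 and ZT02 in log2 (horizontal axis), with 1 point per member and a dashed line where both are equal. The range cannot be below the difference, so all 9 points lie above the line, with Hadha and Ehhadh closest to it and Acaa1b, Cpt2 and Acadl furthest above.

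The arrays of the dark, when the mice had food, were compared with those of the light, when they had none, since beta-oxidation serves the fasting liver. The 3 dark arrays (ZT14, ZT18 and ZT22) and the 4 light arrays (ZT02, ZT06, ZT10 and ZT26) overlapped for every member. Dark minus light in log2 was 0.10 (standard error 0.07) in Cpt2, with means of 11.52 and 11.43, and -0.05 (standard error 0.05) in Acadvl, with means of 10.39 and 10.45, and was between -0.03 and 0.03 in the other 7. Without ZT18 it was 0.03 in Cpt2 and -0.02 in Acadvl. In this comparison 0 of the 9 members passed an adjusted p under 0.05 in limma (0 at an unadjusted p under 0.05), and 0% of all 12076 tested probe sets passed (1357 at an unadjusted p under 0.05). The 95% intervals reached from -0.26 to 0.22 in Acaa1b, the widest, and from -0.07 to 0.12 in Acaa2, the narrowest. The hours within a phase stand in for replicates here, and light, food and clock hour cannot be told apart.

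Other steps of the same pathway were tested from a list of 68 genes, of which 61 could be tested. Of these 13 were rhythmic, 7 with a fitted peak in the light and 6 in the dark, and 29 had an unadjusted p under 0.05. Over all tested probe sets the shares were 4.47% rhythmic and 25.7% with an unadjusted p under 0.05. The list's median change of highest over lowest array was 1.33-fold, close to the largest among the members. The enzymes inside the mitochondrion had a median change of 1.16-fold, as the members had, and 11 of 13 stayed below the 1.32-fold of Acaa1b. Of the 13, 12 were not called, among them Hadh, the short-chain dehydrogenase (1.16-fold), Echs1, the short-chain hydratase (1.11-fold), and Acads, the short-chain acyl-CoA dehydrogenase (1.13-fold). Not all of the genes left uncalled were narrow, since Acot2 changed 1.92-fold. Its range of 0.94 in log2 was that between ZT02 and ZT26. Eci2, an isomerase for unsaturated chains that is shared with the peroxisome, was the one called (1.90-fold, limma, adjusted p = 0.0294, peak at ZT11.5). With 1 array left out, Eci2 was called without ZT26 only, with amplitudes that stayed at 0.42 to 0.50.

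Of the electron carriers downstream of the acyl-CoA dehydrogenases, Etfa and Etfb were also narrow. These subunits of the electron transfer flavoprotein had amplitudes of 0.02 and 0.01. Etfdh, the oxidoreductase that passes the electrons to ubiquinone, was rhythmic at 1.28-fold (limma, adjusted p = 0.0455, peak at ZT4.99). Its amplitude of 0.17 was larger than that of any member. The call of Etfdh was lost whichever array was left out, with amplitudes that stayed at 0.15 to 0.18. Of 8 genes of uptake and activation 0 were rhythmic, the largest amplitude being that of Acbd5, a peroxisomal acyl-CoA binding protein (0.27, standard error 0.05, adjusted p = 0.0663), and 4 had an unadjusted p under 0.05. Of 4 genes of omega oxidation 0 were rhythmic, with Cyp4a14, a fatty acid hydroxylase, at 0.53 (standard error 0.30, adjusted p = 0.480), and 0 had an unadjusted p under 0.05. Of 2 genes of ketone body metabolism 0 were rhythmic, with Bdh1, the hydroxybutyrate dehydrogenase, at 0.29 (standard error 0.06, adjusted p = 0.0652), and 1 had an unadjusted p under 0.05. Beside these small groups, 4.47% of all tested probe sets were rhythmic and 25.7% had an unadjusted p under 0.05.

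Among genes that control the pathway, 6 of 9 ranged more than 1.5-fold, beside 16.3% of all tested probe sets. Of the 9, 3 were rhythmic, beside 4.47% of all tested probe sets. They were Ppara, Lpin1, a phosphatidate phosphatase and transcriptional coactivator (4.52-fold, limma, adjusted p = 0.0493, peak at ZT12.2), and Pdk4, an inhibitor of glucose oxidation (6.86-fold, adjusted p = 0.0201, peak at ZT23.8). With 1 array left out, Lpin1 was called without ZT18 only and Pdk4 without ZT18 or ZT22 only. Their amplitudes stayed at 0.94 to 1.24 and 1.26 to 1.55. The count of 13 in the list rested on all arrays together, as leaving out ZT02 took it to 0, ZT10 or ZT14 to 2, ZT18 or ZT22 to 4, ZT26 to 5 and ZT06 to 6. Fgf21, a hormone that the liver releases in fasting, lay below 85 units and was not tested, and the remaining genes of the list were not analysed here.

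For the 3 members with the largest amplitudes, the most alike profiles over the 7 arrays were sought among all tested probe sets by Pearson's r, as a description. Those nearest to Acaa1b were Aqp4, Kalrn (r = 0.945) and Pitpnc1 (0.939). Nearest to Hadhb were Fxr1 (0.992), Sel1l3 (0.963) and Tmem192 (0.963), and nearest to Acadl were Polr1d (0.981), Cog7 (0.971) and Decr1 (0.965), of which Decr1 is a mitochondrial reductase of unsaturated chains and a gene of the list above. All these profiles come from the same 7 pools, and with so few points r above 0.95 was reached by 1 probe set for Acaa1b (Aqp4), 7 for Hadhb and 3 for Acadl.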

How the data were processed

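RNA of 7 pools was measured on 7 arrays. The deposited values are log2 signals that the authors made with RMA in Affymetrix Expression Console 1.1.2637.26569, per the labels, which corrects background, normalizes between arrays and summarises probes. No genome build for the array is given in the sources used here. Of 35556 probe sets, 21789 carry 1 gene symbol in the annotation table, 1621 several and 12146 none.

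A 24 h cosine was fitted with limma 3.58.1 in R 4.3.3 (lmFit, eBayes, moderated F-test) to the 12076 probe sets with 1 symbol and a mean above 85 units, with Benjamini-Hochberg adjustment over all of them and 4 residual degrees of freedom. Dark and light arrays were compared likewise. The p-values of both fits rest on departures of the pools from the fitted values, not on a spread between mice. With 1 pool per time, these departures mix change of another shape with differences between pools. Both fits were tested on simulated data. Ratios within an array were tested by exact permutation.

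The members and lists were chosen with earlier results of these data known, and the ratio tests were added after the profiles were seen. All members are named, with the pathway genes that were called, for each role with none called the one with the largest amplitude, and further pathway genes chosen after their values were seen. Markers covered hepatocytes, Kupffer, endothelial, stellate, bile duct, lymphoid and erythroid cells. Alternatives were the expression minimum, each array left out, centring, the variance model, the scale, ZT02 and ZT26 as their mean, Fisher's test for one period and the other probe set.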

Additional observations from a re-analysis of the deposited data

How the results depend on the processing

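The count of 0 rhythmic members held under all 15 alternatives tried, as did that of 0 members different between dark and light under 12. By the thresholds of the methods, with Fisher's test, the count of 0 was fixed by the 1.5-fold limit. The count of 13 rhythmic pathway genes became 2 with no expression minimum (57 probe sets called of 21789 in all) and 3 with the mean of ZT02 and ZT26 as 1 point (93 called of 12076). It ranged from 0 to 6 with 1 array left out, where 13 to 312 probe sets were called in all, and from 12 to 19 under the other settings. The 7 ratios that passed became 0 to 6 with 1 array left out, an alternative added after seeing the data. Of these, the counts of 0 without ZT02 and ZT26 are uninformative, since the exact test cannot go below p = 0.0167 there. Dark minus light spanned 0.03 to 0.14 in Cpt2, -0.08 to -0.02 in Acadvl, 5.5e-05 to 0.05 in Ehhadh and 0.01 to 0.04 in Acaa2 with 1 array left out. Its sign turned with 1 array left out (ZT10 or ZT22) in Acadm (range -0.0567 to 0.0252), Acadl (-0.0609 to 0.0614), Hadha (-0.0320 to 0.0170), Hadhb (-0.0902 to 0.0152) and Acaa1b (-0.0882 to 0.0643). Amplitudes with 1 array left out spanned 0.03 to 0.14 in Cpt2, 0.03 to 0.07 in Ehhadh and 0.09 to 0.20 in Acaa1b. No member then passed an adjusted p under 0.05 in limma (lowest 0.183, Hadhb without ZT26). Over all alternatives the lowest in limma was 0.134, in Hadhb with the arrays centred on their medians. The cause of these shifts was not tested. Natural-scale and robust fits changed no member's call. Depth has no meaning for arrays, and small rhythms of members can be missed with 7 of them.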

Other observations

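Erythroid markers, of which 2 of 3 have a probe set and 1 lay above 85 units, summed to 1482 to 1770 units on the light arrays and 1373 to 1494 units on the dark arrays, with the lowest sum at ZT18 and the highest at ZT02.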
